A study of Mus musculus with 8 samples.

Results

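The loop of Henle and the distal convoluted tubule are the nephron segments between the proximal tubule and the collecting duct. The genes described here are 10 of the 24063 gene symbols in the deposited tables and were taken by name: *Umod*, *Egf*, *Calb1*, *Pvalb*, *Trpm6*, *Ppp1r1a*, *Wnk1*, *Wnk4*, *Stk39* and *Klhl3*. They were measured by RNA-Seq in 8 mouse tubuloid cultures, 3D epithelial structures that had grown in Matrigel from kidney tubule fragments. All cultures carried Pkd2fl/fl, Pax8rtTA, TetOCre and mTmG, that is floxed *Pkd2* alleles, a Cre that doxycycline switches on in *Pax8*-expressing tubule cells, and a membrane colour reporter. The labels name no doxycycline for these cultures. In 4 cultures (numbers 6, 12, 17 and 22) glial-derived neurotrophic factor (GDNF) was given as a 24 h pulse after plating. The other 4 (controls 3, 7, 14 and 21) received the same growth factor medium without GDNF. RNA was taken after 7 days. The labels give the kidneys as postnatal day 7 to 10, the methods of the study give day 4 to 7, and neither ties a culture to an animal. The p-values below therefore measure the spread between cultures, which may be technical in part.

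Cells of the thick ascending limb take up salt through the carrier encoded by *Slc12a1* and secrete uromodulin, the product of *Umod* and the most abundant protein of normal urine. Cells of the distal convoluted tubule take up salt through the carrier of *Slc12a3*, which the kinase encoded by *Stk39* (SPAK) switches on when WNK kinases (*Wnk1*, *Wnk4*) activate it. *Klhl3* encodes the adaptor through which a cullin ubiquitin ligase marks WNK kinases for degradation. The same segment reabsorbs magnesium through the channel of *Trpm6*, whose activity the growth factor EGF raises, and buffers calcium with calbindin-D28k (*Calb1*) and parvalbumin (*Pvalb*). *Ppp1r1a* encodes inhibitor 1, a cAMP-regulated inhibitor of protein phosphatase 1.

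The sequences before the start sites of *Umod* and *Wnk4* are shown because these genes carried the clearest separations described below, *Umod* between kinds of culture and *Wnk4* between GDNF and control. Each is a RefSeq window of 300 bases on GRCm38.p6, from 250 bases before to 50 after the start, read 5′ to 3′ on the gene's strand. Capitals mark matches to 3 motifs searched on both strands: the TATA box (TATAAA), the estrogen-related receptor site (AAGGTCA) and the AP-2 site (GCCNNNGGC).
*Umod* (chr7:119479213-119479512, minus strand): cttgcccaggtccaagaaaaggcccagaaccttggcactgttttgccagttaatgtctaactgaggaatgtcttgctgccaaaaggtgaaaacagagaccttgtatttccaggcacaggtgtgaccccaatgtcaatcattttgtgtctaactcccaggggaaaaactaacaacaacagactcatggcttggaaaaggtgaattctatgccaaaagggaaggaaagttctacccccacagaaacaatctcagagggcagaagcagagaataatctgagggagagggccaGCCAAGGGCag
*Wnk4* (chr11:101260317-101260616, plus strand): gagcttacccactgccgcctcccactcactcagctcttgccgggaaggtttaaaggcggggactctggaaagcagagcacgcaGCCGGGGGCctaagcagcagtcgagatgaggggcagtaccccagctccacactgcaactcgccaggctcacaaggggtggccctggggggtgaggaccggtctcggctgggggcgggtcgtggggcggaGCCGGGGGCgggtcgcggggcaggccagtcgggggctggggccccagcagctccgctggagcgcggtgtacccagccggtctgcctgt
The *Umod* window held the AP-2 letters once, at position 39 from the start. Of all 32851 promoter windows, 16.6% held these letters anywhere. The *Wnk4* window held the AP-2 letters at positions -167 and -38 and none of the other motifs. These letters occurred in 6 of the 8 genes with a window, those of *Pvalb*, *Trpm6*, *Wnk1* and *Stk39* included. Windows were found for 8 of the 10 genes, without *Calb1* and *Ppp1r1a*. In them neither the TATA letters (13.6% of all windows) nor the estrogen-related receptor letters (4.72%) occurred. The windows were 47.3% and 70.7% G and C for *Umod* and *Wnk4*, respectively.

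Total transcript counts were between 72991721 and 97490625 per culture. TMM factors, edgeR's correction for library composition, were between 1.07 and 1.11 in the GDNF cultures and between 0.790 and 0.982 in the controls, with control 3 at the low end. Levels are given in the deposited TPM, read for each gene from its transcript with the most counts on average. They can be compared between genes because TPM is per length. TPM has no composition correction: over 13698 genes that averaged 1 TPM or more, the median log2 ratio of GDNF to control was 0.40, against 0.03 over the 16557 genes of the TMM fit and 0.25 with library size only. Differences are therefore given in TPM and from the TMM fit (CPM, counts scaled to library size with TMM factors). Cultures also differed in *Xist* RNA, which the inactive X chromosome of female cells makes. It was at 12.5 to 68.0 TPM in GDNF 6 and 12 and controls 3 and 7 and at 0.111 TPM or less in the other 4, where 4 Y-linked genes together reached 116 to 194 TPM. GDNF 6 and control 3 held some Y-linked RNA too (6.46 and 1.5 TPM). Each group thus held 2 cultures of each kind, and sex cannot be told apart from any other difference between the animals or preparations that these cultures came from.

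Per length, the level of the 10 genes was highest for *Stk39* on average. Averaged over 8 cultures, *Stk39* was at 19.2 ± 4.39 TPM (SD, n = 8), *Calb1* at 11.5 ± 13.6, *Wnk1* at 8.25 ± 3.10 and *Wnk4* at 7.61 ± 3.54 TPM. *Ppp1r1a* (1.74 ± 0.457 TPM), *Trpm6* (1.63 ± 1.15), *Klhl3* (1.63 ± 0.803), *Umod* (1.08 ± 1.07) and *Egf* (0.822 ± 0.475) were lower on average (SD, n = 8). *Calb1* varied most, from 1.23 TPM in control 14 to 43.2 TPM in GDNF 6, where it was above *Stk39*. Every culture had more *Wnk4* than *Ppp1r1a*, and the ranges of these neighbours were separate. The other detected neighbours in this order overlapped, and their order held in between 3 and 7 of the 8 cultures. *Pvalb* (chromosome 15, 78191112 to 78206400, GRCm38), a gene of the early distal convoluted tubule, had 0 counts in every culture. A count of 0 allows up to 3 counts, or 0.0308 to 0.0411 CPM, a limit that covers counting error only.

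The carriers that define both segments were near the bottom of the scale. *Slc12a1* averaged 0.172 ± 0.0563 TPM without and 0.204 ± 0.103 TPM with GDNF (SD, n = 4 in each group), on 40 to 154 counts. *Slc12a3* was at 0.268 ± 0.357 and 0.583 ± 0.442 TPM (SD, n = 4), on 22 to 400 counts. Counts of list genes are summed over the listed transcripts, where a shared read appears in each. Those given below for *Umod* are of the transcript used for TPM only. Other genes of these segments were higher, among them *Cldn10*, a claudin of the thick ascending limb (2.94 to 27.3 TPM), *Cldn8*, a claudin of the distal nephron and collecting duct (5.37 to 68.1 TPM), *S100g*, which encodes calbindin-D9k (9.09 to 41.6 TPM), and *Atp2b1*, a plasma membrane calcium pump found in most cells (11.2 to 32.8 TPM). In these bulk libraries, fewer cells of a type and less RNA per cell cannot be told apart.

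**Figure D1:**
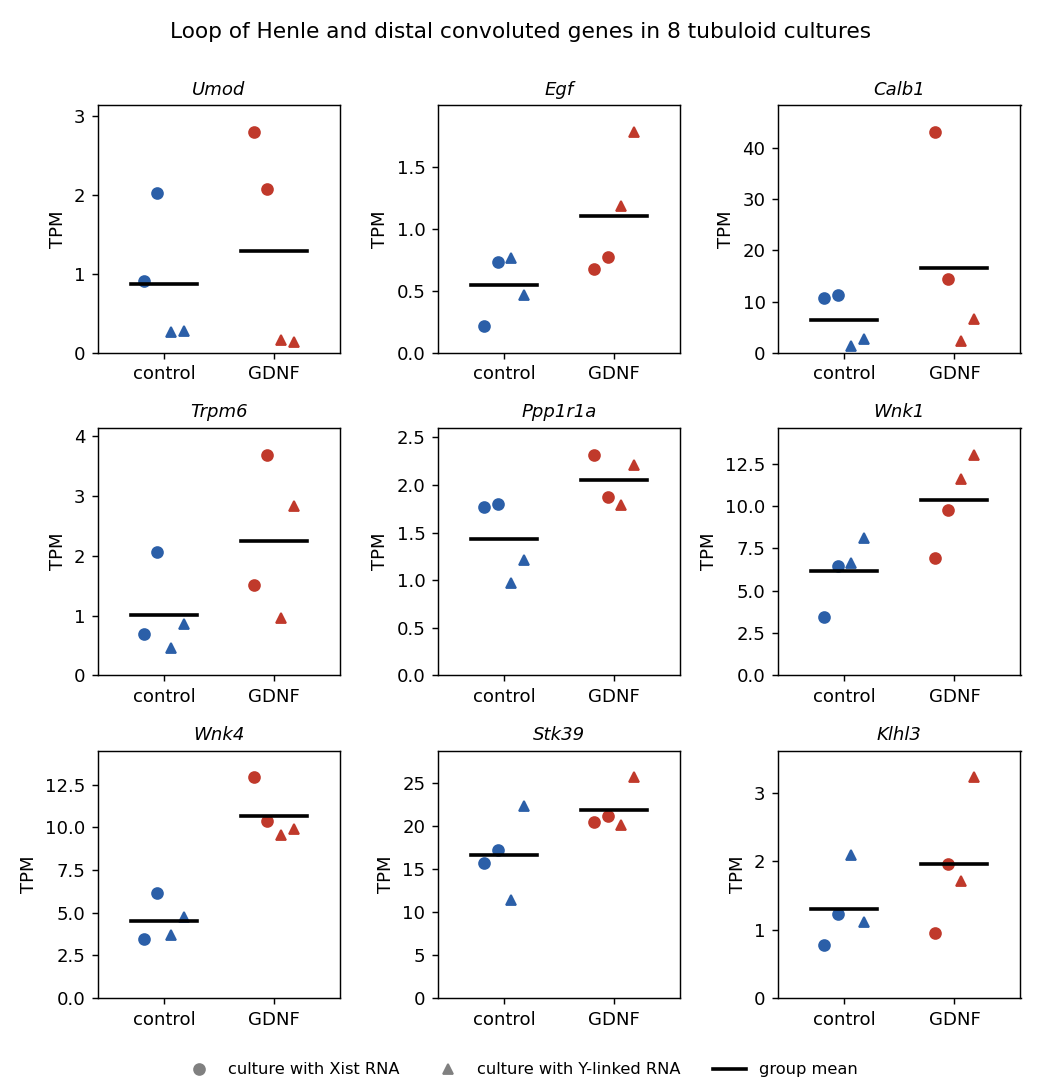
TPM (linear axis from 0, one scale per gene) of 9 genes in 4 control (blue) and 4 GDNF (red) cultures, each point a culture, with circles for cultures with *Xist* RNA, triangles for cultures with Y-linked RNA and lines for group means. *Wnk4* is the gene whose 4 GDNF points (9.53 to 12.9 TPM) lie above all 4 control points (3.47 to 6.19 TPM), and *Umod* and *Calb1* separate circles from triangles.

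*Umod* (chromosome 7, 119462708 to 119479262) encodes a product of the loop, and its level followed the kind of culture. In the controls it was at 0.914 TPM in culture 3, 2.02 in culture 7, 0.259 in culture 14 and 0.271 in culture 21, on 146, 312, 39 and 34 counts. In the GDNF cultures it was at 2.80 TPM in culture 6, 2.08 in culture 12, 0.159 in culture 17 and 0.132 in culture 22, on 359, 270, 20 and 13 counts. The 4 cultures with *Xist* RNA were thus all above the 4 with Y-linked RNA, while GDNF and control overlapped over nearly their whole range. The mean was 1.96 ± 0.780 TPM with *Xist* RNA and 0.205 ± 0.0701 TPM with Y-linked RNA (SD, n = 4 in each), 9.53-fold apart in TPM and 9.98-fold in CPM. This split was not tested. Between GDNF and control, the log2 fold change was 0.18 with a standard error of 1.02 (edgeR quasi-likelihood fit, Benjamini-Hochberg adjusted p = 0.931), and the means of 0.867 ± 0.830 and 1.29 ± 1.36 TPM did not differ beyond the spread (exact permutation test, two-sided, p = 0.771, n = 4). Within the cultures with *Xist* RNA the mean was higher after GDNF, at 2.44 against 1.47 TPM, and within the others it was lower, at 0.145 against 0.265 TPM (2 cultures in each). In CPM these means were 6.57 against 5.28 with *Xist* RNA, where the cultures overlapped, and 0.366 against 0.821 with Y-linked RNA. The test of that difference in effect gave an unadjusted p of 0.0330 and an adjusted p that rounds to 1 (edgeR interaction term). With kind of culture as a covariate the log2 fold change of *Umod* was -0.38. The 2 listed transcripts of *Umod* had identical counts, so no level can be assigned to either alone.

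*Calb1* (chromosome 4, 15881264 to 15906709) split the cultures in the same way. The controls were at 10.7 TPM in culture 3, 11.2 in culture 7, 1.23 in culture 14 and 2.67 in culture 21. The GDNF cultures were at 43.2 TPM in culture 6, 14.3 in culture 12, 2.37 in culture 17 and 6.57 in culture 22. Again every culture with *Xist* RNA was above every culture with Y-linked RNA, with means of 19.9 ± 15.6 and 3.21 ± 2.32 TPM (SD, n = 4 in each), which were 7.03-fold apart in CPM. The GDNF mean of 16.6 ± 18.4 TPM rested on culture 6, and the log2 fold change over control of 0.91 (standard error 0.93, edgeR adjusted p = 0.583) became -0.27 without it. In TPM the exact two-sided permutation p was 0.400 (n = 4 in each group). Within each kind of culture the mean TPM was higher after GDNF (2 cultures in each). It was 28.8 against 10.95 with *Xist* RNA and 4.47 against 1.95 with Y-linked RNA, where GDNF and control cultures overlapped. In CPM these means were 43.4 against 23.2 and 6.15 against 3.31, and GDNF and control cultures overlapped in both kinds.

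Of the 9 detected genes, *Umod* and *Calb1* were the 2 that lay above in all cultures with *Xist* RNA in CPM, a share of 22.2%, where 3.31% of all 16557 genes tested did so. None was below in all of them, as 2.32% of all genes were. In the list of loop of Henle markers it was 6 of 14 genes tested (of 15 listed), *Cldn10*, *Cldn19*, *Casr*, *Kcnj1*, *Tmem72* and *Pou3f3*. *Casr*, the calcium-sensing receptor gene, had 0 to 47 counts and passed the filter on low counts only through the cultures with *Xist* RNA, so that it had to differ, which leaves 5. The potassium channel gene *Kcnj1* was at 0.617 to 1.41 TPM with *Xist* RNA and 0.0737 to 0.601 TPM without. *Cldn19*, whose product pairs with claudin-16 for magnesium and calcium passage, was at 1.21 to 2.64 and 0.0769 to 0.845 TPM. Of the distal convoluted markers 2 of 9 tested (of 12 listed) did so, *Cldn8* and the basolateral potassium channel gene *Kcnj16* (2.99 to 6.43 against 0.713 to 2.43 TPM). In the authors' TPM these counts were 2 of 9 genes described here, 4 of 14 loop markers and 2 of 9 distal convoluted markers, beside 1.84% of all genes above and 3.32% below. Without GDNF 6 and control 3, the cultures with both RNAs, they were 2, 7 and 4 in CPM, beside 7.28% of all genes. The loop counts include *Casr*. *Slc12a1* and *Slc12a3* themselves overlapped between the kinds.

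Principal cell markers moved with this split as well. Of 8 principal cell markers tested, 5 were above in every culture with *Xist* RNA in CPM, a share of 62.5%. That share was 42.9% for the loop markers, *Casr* included, and 22.2% for the distal convoluted markers. *Aqp2*, the defining water channel, had at most 25 counts in any culture. Summed over the list, principal cell markers were at 35.3 to 119 TPM with *Xist* RNA and 14.2 to 37.1 TPM without, ranges that overlapped. *Gata3*, among the most abundant of this list, overlapped as well, at 8.83 to 27.4 and 6.48 to 21.3 TPM. For the other cell types the sums overlapped too. In CPM 0 of 6 podocyte, 0 of 7 epithelial, 0 of 6 proximal tubule and 0 of 3 intercalated cell markers lay apart. Of 5 endothelial markers 1 was below in every culture with *Xist* RNA, as 2.32% of all genes were. Of 4 immune markers 1 was above, as 3.31% of all genes were. Stromal markers were at 194 to 1149 TPM with *Xist* RNA and 635 to 1628 TPM without, and 1 of 7 of them, *Dcn*, was below in every culture with *Xist* RNA. The summed podocyte markers were at 23.2 to 97.6 and 58.5 to 153 TPM, the endothelial markers at 14.2 to 42.2 and 28.2 to 55.8 TPM, and the epithelial markers at 1150 to 2421 and 479 to 3717 TPM. Of the loop markers the sum was 28.7 to 45.03 TPM with *Xist* RNA and 11.2 to 17.6 TPM without, and of the distal convoluted markers 82.0 to 137 and 40.3 to 73.6 TPM. A few abundant genes weighed most in these sums. In control 3 *Cldn10* was 27.3 of 41.3 TPM of the loop sum. In GDNF 6 *Cldn8*, *S100g* and *Atp2b1* were 68.1, 31.9 and 28.1 of 137 TPM of the distal convoluted sum. Tubule injury markers summed to 15433 to 22483 TPM with *Xist* RNA and 10688 to 15037 TPM without, and 1 of 7 of them, *Lcn2*, was above in every culture with *Xist* RNA in CPM. The part of these cell types and of injury in the levels of *Umod* and *Calb1* was not tested.

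**Figure D2:**
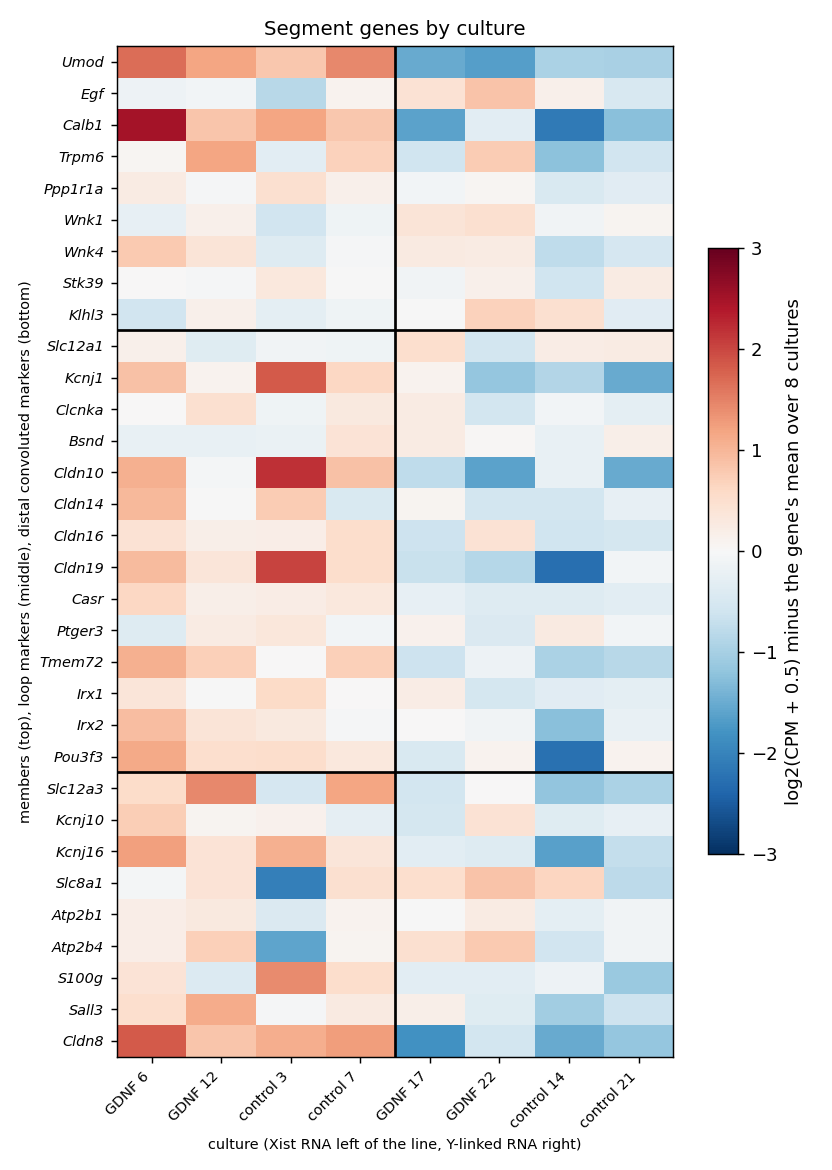
Heat map of log2(CPM + 0.5) minus each gene's mean over 8 cultures for the 9 detected genes (top), 14 loop of Henle markers (middle) and 9 distal convoluted markers (bottom), with cultures with *Xist* RNA left and with Y-linked RNA right of the vertical line. *Umod* and *Calb1* are above their mean in all 4 left columns, as is *Cldn8*, whereas *Wnk1*, *Stk39* and *Slc12a1* show no such block.

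**Figure D3:**
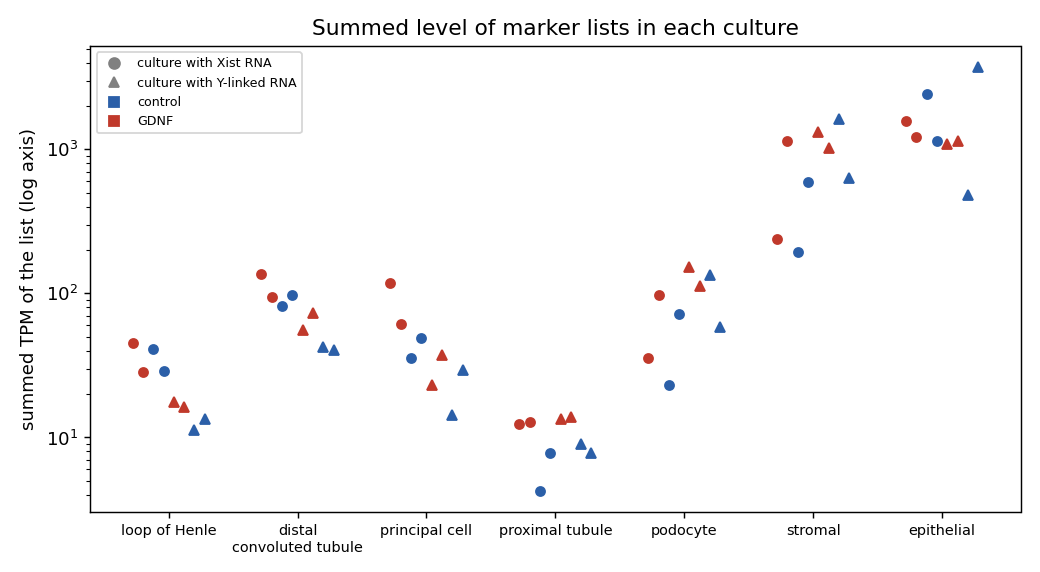
Summed TPM of 7 marker lists (log axis) in each control (blue) and GDNF (red) culture, circles for cultures with *Xist* RNA and triangles for those with Y-linked RNA. The loop list is at 28.7 to 45.03 TPM in the circles and 11.2 to 17.6 TPM in the triangles. The distal convoluted list is at 82.0 to 137 and 40.3 to 73.6 TPM, whereas the principal cell, proximal, podocyte, stromal and epithelial lists overlap. Abundant genes, such as *Cldn10* in the loop list, weigh most in each sum.

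*Wnk4* (chromosome 11, 101260537 to 101277409) was the gene that separated GDNF from control. The controls were at 3.47 TPM in culture 3, 6.19 in culture 7, 3.69 in culture 14 and 4.74 in culture 21. The GDNF cultures were at 12.9 TPM in culture 6, 10.4 in culture 12, 9.53 in culture 17 and 9.91 in culture 22. Every GDNF culture was above every control, in TPM and in CPM with TMM factors, and the group means were 4.52 ± 1.24 and 10.7 ± 1.54 TPM (SD, n = 4 in each; exact permutation test, two-sided, p = 0.0286, the smallest it can give). Such separation was common: 20.6% of all genes tested lay above in all GDNF cultures in TPM and 6.99% in CPM, and 1 of the 9 genes described here did. Below in all GDNF cultures lay 0.61% in TPM and 6.26% in CPM, and 0 of the 9. After adjustment over all genes the permutation p was 0.135. In the TMM fit the log2 fold change of *Wnk4* was 0.86 (standard error 0.21, unadjusted p = 0.00190, edgeR adjusted p = 0.167), so it did not pass the adjusted threshold. DESeq2 gave 0.84 with an adjusted p of 0.0210 and called 2.3% of the genes to which it gave an adjusted p as higher after GDNF. The log2 fold change stayed between 0.71 and 1.08 over 10 other normalizations, filters, tools and terms (adjusted p from 0.0210 to 0.381 over these and the fits with 1 culture left out), and between 0.72 and 1.01 with each culture left out. Within the kinds of culture the mean was 11.7 against 4.83 TPM with *Xist* RNA and 9.72 against 4.22 TPM with Y-linked RNA.

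*Wnk1* (chromosome 6, 119923969 to 120038695), which encodes the related kinase upstream of SPAK, overlapped between the groups. The controls were at 3.43, 6.47, 6.61 and 8.12 TPM in cultures 3, 7, 14 and 21, and the GDNF cultures at 6.96, 9.76, 11.6 and 13.0 TPM in cultures 6, 12, 17 and 22. The GDNF mean of 10.3 ± 2.62 TPM was above the control mean of 6.16 ± 1.97 TPM without passing the test (SD, n = 4; exact permutation test, two-sided, p = 0.0571). In the TMM fit the log2 fold change was 0.38 (standard error 0.20, edgeR adjusted p = 0.279), and it turned to -0.11 once a trend with transcript length was removed from each culture. The 5 listed *Wnk1* transcripts are 9811 to 11332 nt long and had nearly the same counts, the lowest at 96.2% of the highest, so that their reads are largely shared. The kidney makes a short *Wnk1* form without most of the kinase domain from its own promoter. All 5 listed transcripts are long, and reads of the short form cannot be told apart here. The ratio of *Wnk4* to *Wnk1* in TPM was 0.558 to 1.01 in the controls and 0.760 to 1.86 in the GDNF cultures.

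*Stk39* (chromosome 2, 68210445 to 68472108), the kinase gene that WNK kinases act through, was the steadiest of the 9 genes across cultures, with a coefficient of variation of 18.05% in CPM. It was at 15.7, 17.2, 11.4 and 22.3 TPM in controls 3, 7, 14 and 21 and at 20.4, 21.2, 20.1 and 25.7 TPM in GDNF cultures 6, 12, 17 and 22. The groups overlapped, and the means were 16.7 ± 4.52 and 21.8 ± 2.59 TPM (SD, n = 4; exact permutation test, two-sided, p = 0.114). The log2 fold change was -0.02 in the TMM fit (standard error 0.20, edgeR adjusted p = 0.971) and 0.22 with library size only, so that its sign depended on the scaling. *Klhl3* (chromosome 13, 58000226 to 58123477) was at 0.777, 1.24, 2.10 and 1.10 TPM in the same order of controls and at 0.950, 1.95, 1.70 and 3.23 TPM in the GDNF cultures. These ranges overlapped (log2 fold change 0.19, standard error 0.40, edgeR adjusted p = 0.799) and rested on 101 to 264 counts of 1 listed transcript of 2142 nt.

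**Figure D4:**
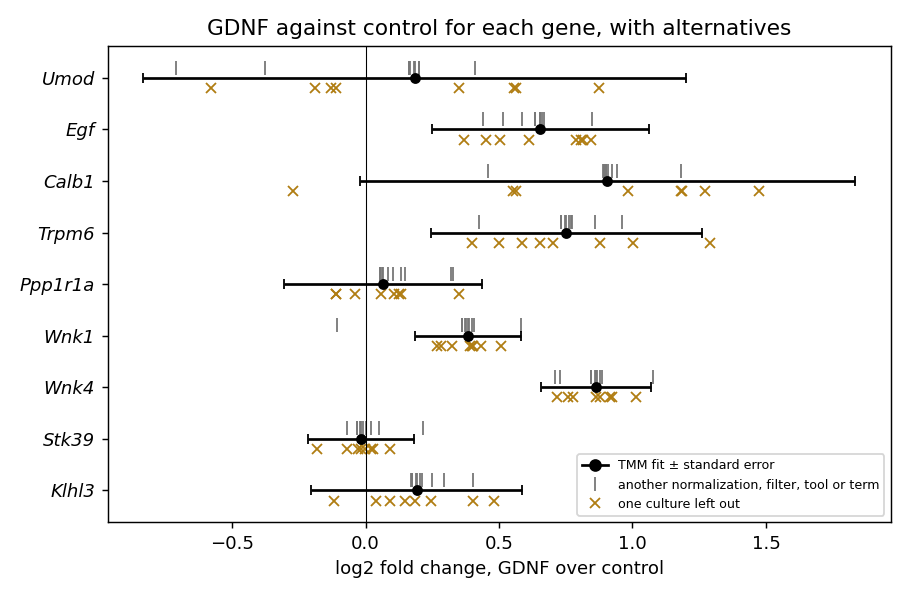
Log2 fold change of GDNF over control (horizontal axis) for the 9 detected genes: black points with standard error bars are the edgeR fit with TMM factors, grey ticks other normalizations, filters, tools or terms, and crosses the fit with 1 culture left out. All values of *Wnk4*, *Egf* and *Trpm6* lie right of 0, and those of *Umod* run from -0.71 to 0.87.

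The pathway around these kinases was described by a list of 17 partners, all of them tested. In edgeR 0 of them passed the adjusted p, 1 was higher and 2 were lower at an unadjusted p of 0.05 (background over all genes 9.25% and 12.9%), and the median log2 fold change was 0.14 against 0.03 over all genes. DESeq2 called 2 of the 17 lower after GDNF, where it called 12.4% of all genes with an adjusted p lower. These were *Rbx1* (log2 fold change -0.77, standard error 0.20, DESeq2 adjusted p = 0.0211, edgeR adjusted p = 0.167) and *Cab39l* (-0.51, standard error 0.15, DESeq2 adjusted p = 0.0316, edgeR adjusted p = 0.167). *Rbx1* encodes the RING subunit of cullin ligases and was the most abundant of the list (224 to 335 TPM), and *Cab39l* encodes a scaffold that activates SPAK. The higher gene was *Wnk3* (log2 fold change 0.89, standard error 0.38, edgeR adjusted p = 0.212). *Sgk1*, the aldosterone-induced kinase, averaged 40.3 ± 13.7 TPM without and 57.6 ± 18.5 TPM with GDNF (SD, n = 4). *Oxsr1*, the close relative of *Stk39*, was at 7.48 ± 1.73 and 10.0 ± 1.86 TPM (log2 fold change 0.03, standard error 0.17). *Wnk2* and *Wnk3* stayed at or under 1.28 TPM in all cultures.

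*Trpm6* (chromosome 19, 18730177 to 18892521) was at 0.695, 2.06, 0.456 and 0.850 TPM in controls 3, 7, 14 and 21 and at 1.51, 3.69, 0.961 and 2.84 TPM in GDNF cultures 6, 12, 17 and 22. Control 7 lay above 2 of the GDNF cultures, so the groups overlapped, with means of 1.02 ± 0.716 and 2.25 ± 1.24 TPM (SD, n = 4; exact permutation test, two-sided, p = 0.171). The log2 fold change was 0.75 (standard error 0.51, edgeR adjusted p = 0.398). *Egf* (chromosome 3, 129677574 to 129755322), made as a membrane precursor in the loop and distal convoluted tubule, was at 0.217, 0.729, 0.761 and 0.463 TPM in the same controls and at 0.674, 0.775, 1.18 and 1.78 TPM in the GDNF cultures. Only control cultures lay under 0.674 TPM, but 2 controls lay above GDNF culture 6, and the log2 fold change of 0.66 (standard error 0.40) had an edgeR adjusted p of 0.355. The 2 GDNF cultures with the most *Egf* RNA were those with Y-linked RNA, the same that had the least *Umod*. The culture medium itself contained EGF protein in both groups.

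Magnesium handling genes were measured as a list of 11, all tested, of which 0 passed the adjusted p in edgeR and 0 in DESeq2, while 1 was higher at an unadjusted p of 0.05, where 9.25% of all genes were. That gene was *Trpm7*, the broadly expressed relative of *Trpm6*, with means of 11.6 ± 4.49 TPM without and 21.6 ± 2.06 TPM with GDNF (SD, n = 4). Its log2 fold change was 0.56 (standard error 0.22, edgeR adjusted p = 0.188). *Trpm7* was thus above *Trpm6* in level by group means in both groups. *Pcbd1*, which encodes a dimerization cofactor of transcription factors, was at 100.2 ± 38.6 and 93.3 ± 39.4 TPM (SD, n = 4).

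*Ppp1r1a* (chromosome 15, 103530279 to 103538027) was at 1.77, 1.80, 0.967 and 1.21 TPM in controls 3, 7, 14 and 21 and at 2.32, 1.88, 1.79 and 2.21 TPM in GDNF cultures 6, 12, 17 and 22. One control, culture 7, lay above the lowest GDNF culture, and the means were 1.44 ± 0.414 and 2.05 ± 0.254 TPM (SD, n = 4; exact permutation test, two-sided, p = 0.0571). In the TMM fit the log2 fold change was 0.07 (standard error 0.37, edgeR adjusted p = 0.933), and it was 0.32 with library size only. Of 5 genes of protein phosphatase 1, 0 passed in edgeR, 3 were lower at an unadjusted p of 0.05 (12.9% of all genes), and DESeq2 called 2 lower (12.4% of all genes with an adjusted p), the catalytic subunit genes *Ppp1ca* (log2 fold change -0.62, standard error 0.20) and *Ppp1cb* (-0.56, standard error 0.18), whose edgeR adjusted p was 0.167 for each. The third was *Ppp1r2*, another inhibitor gene (-0.51, standard error 0.20, edgeR adjusted p = 0.189). *Ppp1r1b*, the relative of *Ppp1r1a* known as DARPP-32, was at 10.1 to 36.3 TPM in the cultures with *Xist* RNA and 1.36 to 4.61 TPM in the others.

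Between GDNF and control, 0 of the 9 genes tested passed the adjusted p of 0.05 with edgeR, as did 0 of all 16557 genes (0%). Limma-voom called 0 of the 9 and 0 of all genes, and DESeq2 called 1 of the 9, *Wnk4*, among 14.7% of all genes with an adjusted p, and gave 5 of them no adjusted p. At an unadjusted p of 0.05, edgeR had 1 of the 9, again *Wnk4*, where 22.1% of all genes passed in either direction. The median log2 fold change of the 9 was 0.38, and 8 were positive, where 52.5% of all genes were. In TPM the mean of all 9 was higher after GDNF, as it was for 78.6% of the genes that averaged 1 TPM or more. The loop of Henle list had 0 of 14 genes past an unadjusted p of 0.05 in either direction and a median log2 fold change of 0.22. The distal convoluted list had 2 of 9 higher at that p, where 9.25% of all genes were, and a median of 0.55. These 2 were the calcium pump genes *Atp2b4* (log2 fold change 1.06, standard error 0.38, edgeR adjusted p = 0.170) and *Atp2b1* (0.36, standard error 0.15, edgeR adjusted p = 0.212). For *Irx2*, the loop marker with the smallest p, the log2 fold change was 0.63 (standard error 0.39, edgeR adjusted p = 0.359). The difference of the GDNF effect between the kinds of culture passed the adjusted p for 0 of the 9 genes and 0 of all genes (edgeR interaction term), and for 1 of the 9 at an unadjusted p of 0.05, *Umod*, beside 0.568% of all genes.

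The genes whose levels ran most like each of these were taken from 11456 genes with a mean of at least 5 CPM, by Pearson's r of log2 CPM over the 8 cultures. For *Wnk4* they were *Sall1*, a kidney transcription factor gene (r = 0.976), and *Bbs2*, a cilium gene (r = 0.961). *Calb1* was followed by *Hpn*, a membrane protease gene (r = 0.992), and *Ppp1r1b* (r = 0.985), and *Umod* by the vasopressin receptor gene *Avpr2* (r = 0.951). For *Umod* and *Calb1* the cultures fall into separate kinds, and the part of that split in these values was not tested. *Wnk1* was followed by *Ptpn12* and *Taok1* (r = 0.994 and 0.990), *Stk39* by *Sytl2* and *Zfp664* (r = 0.979 and 0.978) and *Klhl3* by *Chst2* and *B3gnt9* (r = 0.961 and 0.944). For *Egf* they were *Lcorl* and *Spire1* (r = 0.984 and 0.975), for *Trpm6* *Fbrsl1* and the chloride carrier gene *Slc12a7* (r = 0.958 and 0.947), and for *Ppp1r1a* *Khk* and *Oit1* (r = 0.954 and 0.951). Each r is the highest of many and has no test.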

How the data were processed

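RNA-Seq libraries (SMART-Seq v4, poly-A selection, paired ends) of 4 GDNF and 4 control cultures were analysed. The authors used STAR, run on BasePair, to map reads to mm10 (GRCm38). The submitters' processing notes also name featureCounts and DESeq2, with versions not given in the sources used here. The deposited counts are whole numbers for 33068 RefSeq transcripts, without normalization, and reads shared by transcripts of a gene appear in each. The deposited FPKM values are those counts per transcript length and total, and served here only for lengths. The deposited TPM values sum to the same total in each culture.

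Transcript counts of each symbol were added up. They were fitted in R 4.3.3 with the quasi-likelihood functions of edgeR 4.0.16 after filterByExpr and TMM, and p-values were adjusted by Benjamini-Hochberg over 16557 genes. Alternatives used DESeq2 1.42.0 and limma 3.58.1. TPM was compared by exact permutation tests over 70 assignments, two-sided, adjusted likewise over all genes. Standard errors are the absolute log2 fold change over the square root of F. The scripts were tested on simulated data with 200 changed genes and the spread of these data. At the adjusted p, edgeR recovered 14.5% of 2-fold and 75% of 4-fold changes, so it missed most 2-fold changes. DESeq2 recovered 53.5% of 2-fold changes, 107 genes, beside 61 false calls. At 4-fold it recovered 80.5%, beside 63 false calls. Total counts per culture were 72991721 to 97490625, at which counting error is small except for genes with few counts, such as *Umod* in some cultures. These totals hold a shared read once per transcript. With only the top transcript of each gene they were 46478955 to 62847252.

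The genes and lists were chosen with earlier results of these data known. Named are all 10 genes, *Slc12a1* and *Slc12a3*, and of each list the genes past the adjusted p, otherwise the 2 with the highest mean TPM and the one with the smallest p, and for each gene the 2 most like it. A few genes that this rule names are not reported here. List genes past only an unadjusted p or DESeq2's adjusted p, genes listed as lying apart between kinds of culture, and *Oxsr1*, *Wnk2*, *S100g*, *Ppp1r1b* and *Aqp2*, were added after their values were seen. Of 122 list genes, 121 were found. Python 3.11.15 (SciPy 1.17.1, pandas 2.3.3, NumPy 2.4.6, matplotlib 3.10.9) was used for the rest.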

Additional observations from a re-analysis of the deposited data

Results flagged for a closer look

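The TMM factor of control culture 3 was 0.790, far from the other controls at 0.963 to 0.982. It was the one value far from its group among 20 groups of 4 examined, where chance gives about 1. Without this culture the log2 fold changes of *Wnk4* and *Stk39* were 0.86 and 0.092.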

How the results depend on the processing

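No paired analysis was run, because GDNF and control cultures share no culture numbers and the labels record no pairs. Whether a GDNF and a control culture came from the same preparation is therefore not known. The groups and kinds of culture may hold fewer independent preparations than cultures. Of 18 alternatives to the edgeR fit, DESeq2 changed the count of calls, with 1 of the 9 genes and 5 of the list genes past the adjusted p against 0 and 0, and 1346 against 0 of all genes; with each culture left out, both counts stayed at 0. In TPM, the 1 gene past the exact permutation p became 0 with permutation within the kinds of culture or with any culture left out (range 0 to 0), where the smallest possible p is 0.0556 and 0.0571. Signs turned as follows. The log2 fold change of *Umod* was -0.38 with kind of culture as covariate and -0.71 in limma-voom, and with 1 culture left out it ran from -0.58 to 0.87 (in TPM from -0.13 to 1.43). That of *Wnk1* was -0.11 with the length trend removed. That of *Stk39* was 0.22 with library size only, 0.049 in limma-voom, 0.00091 with a mean of at least 1 CPM and 0.022 with upper-quartile factors, and its log2 ratio in CPM was -0.016. With 1 culture left out, *Calb1* ran from -0.27 to 1.48, *Ppp1r1a* from -0.11 to 0.35, *Stk39* from -0.18 to 0.092 and *Klhl3* from -0.12 to 0.48. *Wnk4*, *Egf* and *Trpm6* kept their sign under all 18. The causes were not tested.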

Other observations

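Of 6 proximal tubule markers tested, 0 passed the adjusted p and 1 was higher at an unadjusted p of 0.05, the organic anion carrier gene *Slc22a8* (log2 fold change 1.77, standard error 0.64, edgeR adjusted p = 0.177), where 9.25% of all genes were higher at that p. In CPM with TMM factors 0 of the 6 lay above in every GDNF culture. In TPM, which has no composition correction, *Slc5a2* did, at 9.23 to 12.2 against 3.75 to 8.37 TPM, as 20.6% of all genes did. The proximal list summed to 12.4 to 13.9 TPM with GDNF and 4.28 to 9.06 TPM without. Of 5 endothelial markers, *Flt1* (log2 fold change 0.81, standard error 0.26) and *Tek* (2.69, standard error 1.07) were higher at an unadjusted p of 0.05 in edgeR, with adjusted p of 0.167 and 0.193. DESeq2 called *Flt1* higher (adjusted p = 0.0426), as it did 2.3% of all genes with an adjusted p. Lower at that p were *Atp6v0d2* of 3 intercalated cell markers, *Krt8* of 7 epithelial markers and *Spp1* of 7 injury markers (log2 fold changes -0.80, -1.45 and -0.67, edgeR adjusted p 0.197, 0.216 and 0.216), where 12.9% of all genes were lower. None of the 8 principal cell, 6 podocyte, 7 stromal and 4 immune markers tested passed an unadjusted p of 0.05.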
